A study of Mus musculus with 9 samples.

Results

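The genes described here build and use the microtubule cytoskeleton: tubulins, microtubule-associated proteins and transport motors. They were chosen by name, as a list of 37 genes. Each was represented by a probe set annotated to that gene only, and by the one with the highest mean over the 9 arrays where a gene had several. Of the 37 genes, 36 were measured in this way, out of 22180 such genes on the arrays. Tuba4a, an alpha tubulin, has no value because its probe set was shared with another gene, Stk16.

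The series concerns the part that Hmgn5, a chromatin protein that binds nucleosomes, plays in neurite outgrowth. N1E-115 is an established mouse neuroblastoma line whose cells extend neurites on laminin once serum is removed. Cells of all groups were transfected with 80 nM siRNA, kept without serum overnight and then replated on laminin-coated coverslips. The groups were cells with an siRNA pool against Hmgn5 at 24 h, and cells with control siRNA at 24 h and at 4 h, on 3 arrays each. Hmgn5 siRNA cells at 4 h were not among the 9 arrays, so their change over time could not be measured. Every value comes from 1 cell line after transient transfection.

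Microtubules are hollow polymers of alpha and beta tubulin dimers, nucleated by complexes that contain gamma tubulin. In neurites they form bundles that bear the length of the process and serve as its tracks. Structural microtubule-associated proteins stabilise and space these bundles, end-binding proteins control growth at the tips, and kinesins and cytoplasmic dynein carry cargo outward and back to the cell body.

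Values are log2 expression per probe set, and a gene was called when its limma p, adjusted by Benjamini-Hochberg over all 22180 genes, was under 0.05. Hmgn5 itself had 3.53, 3.45 and 3.50 in Hmgn5 siRNA cells at 24 h, against 4.77, 4.66 and 4.69 in control cells at 24 h. Every Hmgn5 siRNA array lay below every control array, with a log2 difference of -1.21 (SE 0.09, limma adjusted p = 0.00367). The Hmgn5 signal lay under the array median of all probe sets on every array and was not shown to exceed background, so no remaining share is given. Markers of neuroblastoma and sympathetic neurons had array means of 9.94 to 9.98 in Hmgn5 siRNA cells, 10.01 to 10.02 in control cells at 24 h and 9.73 to 9.86 in control cells at 4 h, and 10 of the 12 measured lay above the array median of all probe sets. Those of glia (8 measured), fibroblasts (10), leukocytes (9) and endothelium (10) had array means between 4.34 and 5.10 in all groups, array medians being 5.16 to 5.30, and no member of these lists was called in any comparison. Above the array median lay 1 of the glial, 5 of the fibroblast, 1 of the leukocyte and 4 of the endothelial markers. One array stood apart, the second replicate of control siRNA at 4 h, with an array weight of 0.198 where the others had 0.789 to 1.74. It held the lowest of the 9 values for 16 of the 36 measured genes (44.4%, against 22.6% of all genes), so the counts, medians and main gene differences that rest on the 4 h group are also given without it. Separate cultures are not stated for the replicates of a group, so the p-values reflect only how far these samples differ, which may be technical variation.

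**Figure D1:**
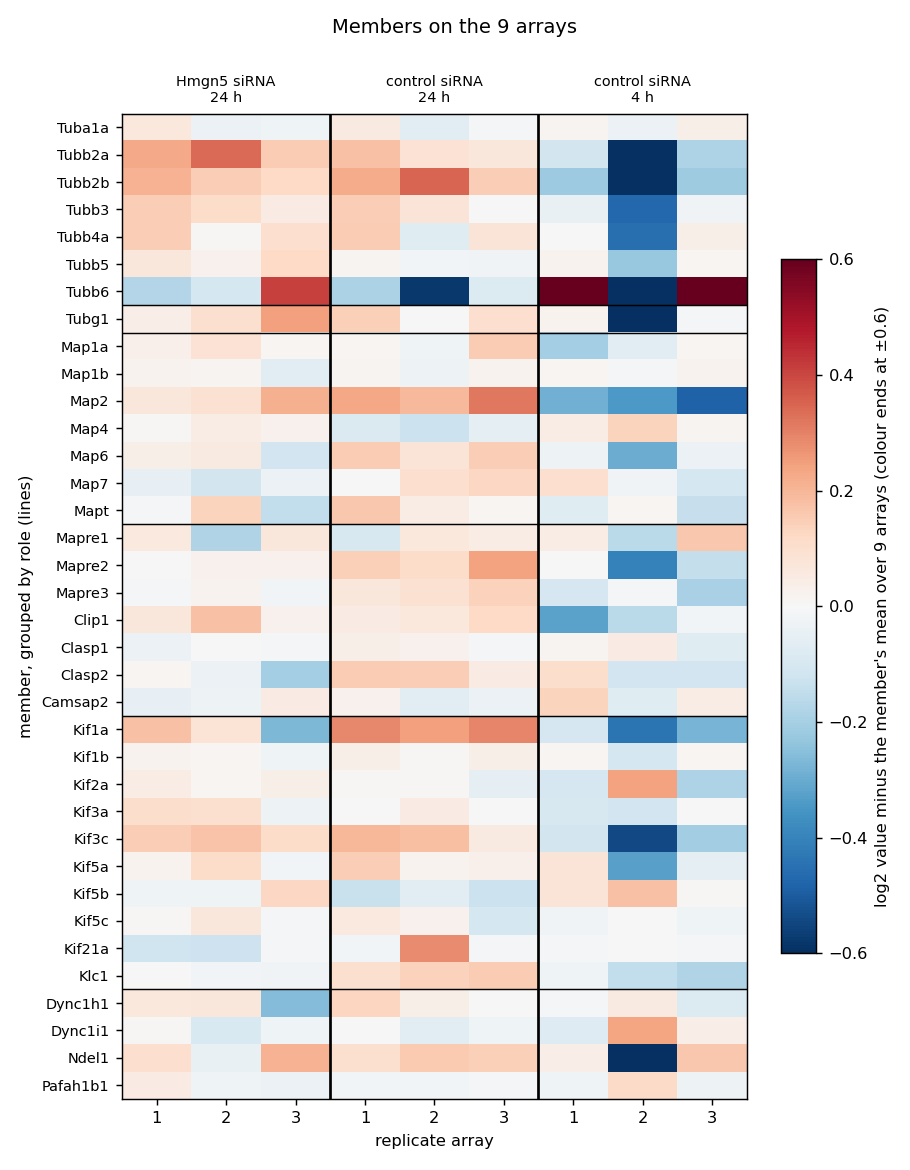
Log2 value of each of the 36 measured genes on each of the 9 arrays, minus that gene's mean over the 9 arrays, with genes in rows grouped by role and arrays in columns grouped by siRNA and time. Map2, Tubb2b and Kif3c are low on all 3 control siRNA arrays at 4 h, and the second of these arrays is the lowest of the 9 for 16 genes.

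Between 4 h and 24 h on laminin, control cells gained messenger RNA of a beta tubulin, a dendritic microtubule-associated protein and 2 transport kinesins. Tubb2b, Map2, Kif1a and Kif3c were called higher at 24 h, that is 4 of 36 genes, where 2.17% of all genes were called higher. No gene of the list was called lower, where 2.17% of all genes were. The largest of these rises was 1.56-fold, for Tubb2b. These are levels in whole cultures, in which fewer cells of a kind and less RNA per cell cannot be told apart.

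Across the list, 26 of 36 genes (72.2%) had a positive difference between 24 h and 4 h, and 10 a negative one. Of all genes, 54.9% had a positive difference. The median log2 difference was 0.11, against 0.02 over all genes. The arrays of both groups did not overlap for 12 genes that were higher at 24 h and for 2 that were lower, where 11.3% and 9.98% of all genes showed this. An unadjusted limma p under 0.05 was found for 13 of 36 genes (36.1%), against 18.0% of all genes. Of these 13 genes, 11 were higher and 2 lower at 24 h. By role, the median was 0.19 for alpha and beta tubulins, 0.13 for structural proteins, 0.16 for end-binding proteins, 0.09 for kinesins and 0.02 for dynein genes. The sympathetic neuron markers Th and Dbh, which encode enzymes of catecholamine synthesis, rose over the same time, Th by 0.53 (limma adjusted p = 0.0188) and Dbh by 0.80 (adjusted p = 0.00534), and their part in these differences was not tested. They were the 2 called of the 12 measured markers of that kind, of which 9 had a positive and 3 a negative difference. Without the second 4 h array the median was 0.08, 27 genes lay above 0 and 5 were called, 4 higher and 1 lower, where 2.64% and 2.94% of all genes were called. Of the calls, only that of Map2 held whichever array was left out. It was the sole call without Hmgn5 siRNA replicate 2 or any control array at 24 h, and 1 of 2 without Hmgn5 siRNA replicate 1 or 3 or control 4 h replicate 3. Calls over all genes fell too, to between 310 and 801 in these fits, from 963 with all arrays.

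**Figure D2:**
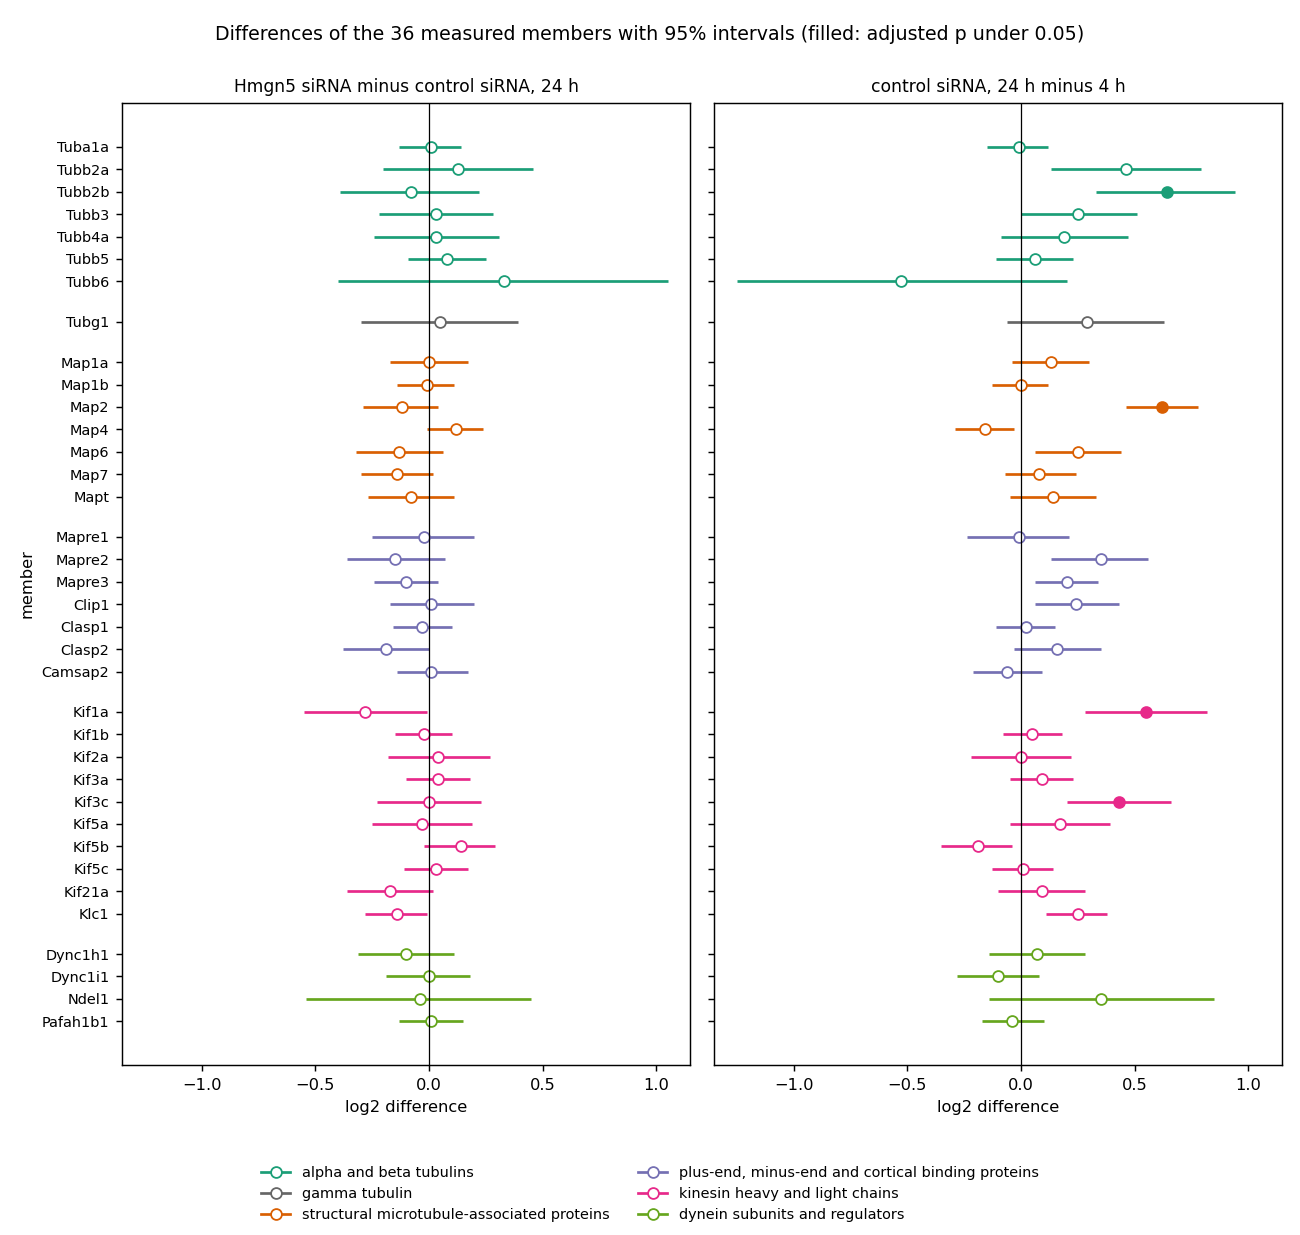
Log2 difference of each measured gene with its 95% confidence interval from limma, for Hmgn5 siRNA minus control siRNA at 24 h (left) and for control siRNA at 24 h minus 4 h (right), with colours for the roles and filled points for an adjusted p under 0.05. The 4 filled points, Tubb2b, Map2, Kif1a and Kif3c, are all on the right-hand panel and above 0.

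Of the 4 genes called over time, Map2, Kif1a and Kif3c have start sites in the RefSeq promoter table. Their 250 bases before the start (GRCm38.p6) are shown because these are the genes that rose, read along the strand of the gene, with matches to the searched motifs in capitals. Map2 lies on the plus strand of chromosome 1, and its window is chr1:66175079-66175328. Kif1a lies on the minus strand of chromosome 1, and the window of its upstream start is chr1:93101875-93102124. Kif3c lies on the plus strand of chromosome 12, with the window chr12:3364882-3365131.
Map2: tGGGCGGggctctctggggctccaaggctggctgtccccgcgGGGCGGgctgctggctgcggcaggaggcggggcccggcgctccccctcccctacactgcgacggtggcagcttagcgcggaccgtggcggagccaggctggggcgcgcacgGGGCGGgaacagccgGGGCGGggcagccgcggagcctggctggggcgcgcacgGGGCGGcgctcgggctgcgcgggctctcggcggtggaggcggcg
Kif1a: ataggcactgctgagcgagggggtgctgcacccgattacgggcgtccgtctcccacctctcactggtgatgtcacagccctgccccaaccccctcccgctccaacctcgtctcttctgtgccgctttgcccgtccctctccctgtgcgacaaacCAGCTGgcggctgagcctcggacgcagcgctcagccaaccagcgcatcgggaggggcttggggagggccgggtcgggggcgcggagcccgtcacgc
Kif3c: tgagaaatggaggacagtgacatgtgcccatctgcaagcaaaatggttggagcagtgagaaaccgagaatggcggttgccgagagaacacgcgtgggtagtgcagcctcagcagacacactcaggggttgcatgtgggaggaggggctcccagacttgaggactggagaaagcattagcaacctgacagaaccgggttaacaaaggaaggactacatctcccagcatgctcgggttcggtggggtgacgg
The motifs searched on both strands were GGGCGG (a GC box), CAGCTG (an E-box), CCAAT, TGACGTCA (a cyclic AMP response element) and TATAAA. The Map2 window held 5 GC boxes in the plus orientation and had 81.2% G and C. The Kif1a window held 1 E-box at 69.2% G and C, while the window of its other start held no motif, and the Kif3c window held none of the 5 motifs at 55.6%. The median of all 32851 promoters was 52.4%. No searched motif occurred in more than 1 of the windows shown, and any link of these motifs to the rise was not tested. Over the 35 promoters of the 28 listed genes found in the table, 21 held a GC box (60.0%), against 32.7% of all promoters in the table. CAGCTG was in 14.3% against 13.0%, CCAAT in 37.1% against 33.8%, TGACGTCA in 11.4% against 1.55% and TATAAA in 17.1% against 12.4%. The TGACGTCA share stands for 4 promoters. The table covers genes of every tissue, and a match is a description of the letters only.

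Among the alpha and beta tubulins, Tubb2b, a beta tubulin of developing neurons, had 10.43, 10.36 and 10.34 in Hmgn5 siRNA cells at 24 h, 10.44, 10.56 and 10.37 in control cells at 24 h, and 10.00, 9.45 and 10.01 in control cells at 4 h. All 24 h arrays lay above all 4 h arrays, and the groups at 24 h overlapped. The time difference in control cells was 0.64 (SE 0.14, limma adjusted p = 0.0317), and without the second 4 h array it was 0.45 (adjusted p = 0.0103). A second Tubb2b probe set averaged 7.83 ± 0.13 at 24 h and 7.16 ± 0.62 at 4 h in control cells (SD, n = 3 each), a difference of 0.67.

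Tubb2a, its close paralog, had 9.90, 10.02 and 9.83 in Hmgn5 siRNA cells at 24 h, 9.85, 9.76 and 9.74 in control cells at 24 h, and 9.57, 8.92 and 9.49 in control cells at 4 h. All its 24 h arrays lay above its 4 h arrays, but its difference over time of 0.46 did not pass the test (SE 0.15, limma adjusted p = 0.126). Without the second 4 h array it was 0.26 (adjusted p = 0.0781). Both paralogs are nearly identical in sequence, so their probe sets could share target RNA and the Tubb2a and Tubb2b values are uncertain as values of single genes.

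The other tubulins did not pass the test over time. Tubb3, the neuronal beta tubulin used as a marker of neurons, had a difference of 0.25 (limma adjusted p = 0.272), and 0.11 without the second 4 h array. Tuba1a, the main alpha tubulin of young neurons, had -0.01, and Tubb5, a broadly expressed beta tubulin, had 0.06 (-0.03 and -0.03 without that array). Tubb4a, whose signal was under the array median on all 9 arrays, had 0.19, and 0.03 without it. Tubg1, the gamma tubulin that caps and seeds new microtubules, had 0.29, and 0.07 without the second 4 h array.

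Tubb6, a beta tubulin found in many non-neuronal tissues, was singled out after its values were seen. It had 7.35, 7.42 and 7.94 in Hmgn5 siRNA cells at 24 h, 7.34, 6.95 and 7.44 in control cells at 24 h, and 8.13, 6.91 and 8.27 in control cells at 4 h. Its pooled within-group SD of 0.49 was the largest of the 36 genes, and the second 4 h array lay below every other array. The difference over time was -0.53 (SE 0.32, limma adjusted p = 0.446). Without that array it was -0.96 (SE 0.20, adjusted p = 0.0302), a call of lower at 24 h that the full set of arrays did not give.

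Map2, which stabilises microtubules in dendrites and cell bodies, had the smallest adjusted p of the list over time. Its values were 8.95, 8.97 and 9.10 in Hmgn5 siRNA cells at 24 h, 9.12, 9.08 and 9.20 in control cells at 24 h, and 8.59, 8.54 and 8.40 in control cells at 4 h. The 4 h arrays lay below all others by more than the spread within any group. The rise in control cells was 0.62, or 1.54-fold (SE 0.07, limma adjusted p = 0.00279). Without the second 4 h array it was 0.63 (adjusted p = 0.0053).

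The remaining structural proteins moved less. Map6, which protects microtubules from cold and drugs, had 9.05, 9.07 and 8.90 in Hmgn5 siRNA cells at 24 h, 9.17, 9.09 and 9.16 in control cells at 24 h, and 8.98, 8.72 and 8.98 in control cells at 4 h. Both control groups did not overlap, yet the difference of 0.25 missed the threshold (limma adjusted p = 0.152), and a second Map6 probe set gave 0.11. The difference was 0.16 without the second 4 h array. Map4, the broadly expressed relative of Map2 and tau, had 9.34, 9.38 and 9.36 in Hmgn5 siRNA cells at 24 h, 9.25, 9.21 and 9.28 in control cells at 24 h, and 9.38, 9.47 and 9.35 in control cells at 4 h. It was 1 of the 2 genes whose control arrays at 24 h all lay below those at 4 h, by -0.16 (adjusted p = 0.18), and by -0.12 without that array. Mapt, which encodes the axonal protein tau, had 0.14. Its control groups only just missed overlapping, with 8.92 on both the lowest 24 h array and the highest 4 h array. Map1a and Map1b, large proteins that link microtubules to other structures, had 0.13 and 0.00, and Map7, a kinesin cofactor that was under the array median on all arrays, had 0.08.

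Of the proteins at microtubule ends, none was called over time. Mapre2, an end-binding protein, had 7.62, 7.65 and 7.65 in Hmgn5 siRNA cells at 24 h, 7.76, 7.73 and 7.86 in control cells at 24 h, and 7.62, 7.21 and 7.48 in control cells at 4 h, a difference over time of 0.35 (limma adjusted p = 0.0807), and 0.24 without the second 4 h array. Mapre3, the end-binding protein enriched in neurons, had 8.48, 8.51 and 8.47 in Hmgn5 siRNA cells at 24 h, 8.55, 8.58 and 8.63 in control cells at 24 h, and 8.39, 8.48 and 8.29 in control cells at 4 h. Its difference of 0.20 (adjusted p = 0.123) became 0.25 without the second 4 h array and then passed the test (adjusted p = 0.0379). Clip1, which rides on growing plus ends, had 7.54, 7.64 and 7.49 in Hmgn5 siRNA cells at 24 h, 7.52, 7.53 and 7.59 in control cells at 24 h, and 7.15, 7.31 and 7.45 in control cells at 4 h, a difference of 0.24 (adjusted p = 0.148). For these 3 genes the control arrays at 24 h all lay above those at 4 h. Mapre1, the most studied member of the end-binding family, had -0.01. Clasp1 and Clasp2, which rescue shrinking microtubules, had 0.02 and 0.16, and Camsap2, which holds minus ends, had -0.06. Leaving out the second 4 h array gave -0.10 for Mapre1, 0.04 for Clasp1, 0.12 for Clasp2 and -0.11 for Camsap2.

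Both kinesins called over time are anterograde motors. Kif1a, the carrier of synaptic vesicle precursors, had 8.12, 8.03 and 7.68 in Hmgn5 siRNA cells at 24 h, 8.23, 8.19 and 8.24 in control cells at 24 h, and 7.84, 7.51 and 7.67 in control cells at 4 h. Control cells at 24 h lay above both other groups without overlap, while the third Hmgn5 siRNA array lay within the range of the 4 h arrays. The rise over time was 0.55, or 1.46-fold (SE 0.12, limma adjusted p = 0.0335), and 0.47 without the second 4 h array, where the call was lost (adjusted p = 0.0707).

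Kif3c, a motor of the kinesin-2 family present in neurons, had 9.77, 9.80 and 9.74 in Hmgn5 siRNA cells at 24 h, 9.83, 9.81 and 9.68 in control cells at 24 h, and 9.51, 9.09 and 9.42 in control cells at 4 h. All 24 h arrays lay above all 4 h arrays. The rise over time of 0.43, or 1.35-fold, was just inside the threshold (SE 0.10, limma adjusted p = 0.0492), and without the second 4 h array it was 0.30 (adjusted p = 0.0339).

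Klc1, a light chain through which kinesin-1 holds cargo, was just outside it. It had 9.24, 9.22 and 9.22 in Hmgn5 siRNA cells at 24 h, 9.34, 9.38 and 9.39 in control cells at 24 h, and 9.21, 9.09 and 9.06 in control cells at 4 h. The 3 groups did not overlap, and the difference over time was 0.25 (SE 0.06, limma adjusted p = 0.0513), and 0.23 without the second 4 h array (adjusted p = 0.0658). Kif5b, the widely expressed heavy chain of kinesin-1, had 9.95, 9.95 and 10.10 in Hmgn5 siRNA cells at 24 h, 9.84, 9.91 and 9.84 in control cells at 24 h, and 10.05, 10.15 and 9.98 in control cells at 4 h. Its control arrays were lower at 24 h than at 4 h without overlap, by -0.19 (adjusted p = 0.164), and by -0.15 without the second 4 h array. A second, dimmer Kif5b probe set, with group means of 5.09 to 5.12, gave -0.01. The neuronal heavy chains Kif5a and Kif5c had 0.17 and 0.01. Kif1b, a carrier of mitochondria and vesicle precursors, had 0.05, Kif3a, the partner of other kinesin-2 motors, 0.09, and Kif2a, a depolymerising kinesin, 0.00. Kif21a, which restrains microtubule growth at the cortex, had 0.09, with a signal under the array median and only 6 distinct values on the 9 arrays. Leaving out the second 4 h array gave Kif5a 0.06, Kif1b 0.01, Kif3a 0.06 and Kif2a 0.13.

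The dynein genes were not called. Dync1h1, the heavy chain of cytoplasmic dynein, had a difference over time of 0.07, and Dync1i1, an intermediate chain with a signal under the array median on all arrays, had -0.10. Pafah1b1, which encodes the dynein regulator Lis1, had -0.04. For these 3 genes the values were 0.10, -0.01 and 0.01 without the second 4 h array. Ndel1, a partner of Lis1, had 0.35 (limma adjusted p = 0.456), and 0.03 without the second 4 h array, whose value of 7.64 compared with 8.55 and 8.67 on the other 4 h arrays.

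**Figure D3:**
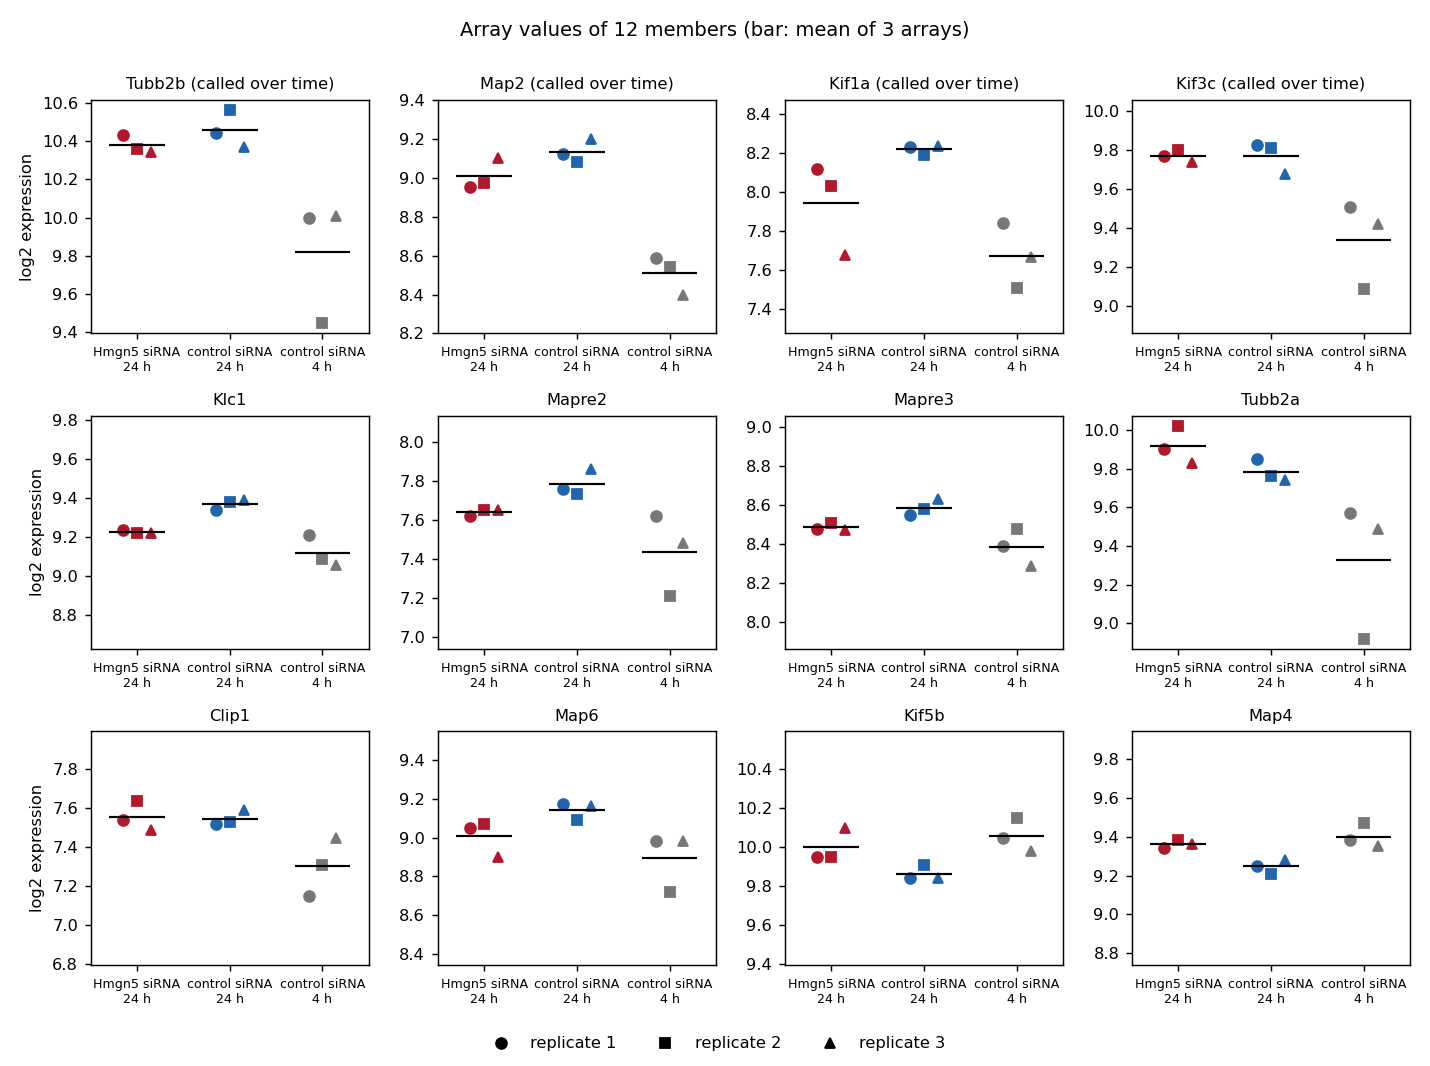
Log2 expression on each array for the 4 genes called over time and the 8 further genes with the smallest p, with Hmgn5 siRNA at 24 h leftmost, then control siRNA at 24 h and at 4 h, symbols for the replicates and a bar at the mean of 3 arrays. Map2 and Kif3c are lowest in all 3 arrays at 4 h, whereas Kif1a in Hmgn5 siRNA cells spans the distance between both control groups.

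At 24 h the microtubule genes were measured near their control levels in Hmgn5 siRNA cells, within the precision of 3 arrays per group. None of the 36 genes was called between Hmgn5 siRNA and control siRNA, where 0.0135% of all genes were called, that is 3 genes, Hmgn5 among them. Differences ranged from -0.28 for Kif1a to 0.33 for Tubb6, with a median of -0.01, against 0.00 over all genes. An unadjusted limma p under 0.05 was found for 3 of 36 genes (8.33%), against 5.25% of all genes, and the smallest adjusted p was 0.932. For 35 of 36 genes the whole 95% confidence interval of the difference lay within 1.5-fold in either direction, Tubb6 being the exception with an interval of -0.40 to 1.05.

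The 3 genes with an unadjusted p under 0.05 were Kif1a, Clasp2 and Klc1, all lower with Hmgn5 siRNA. Kif1a had a difference of -0.28 with an interval of -0.55 to -0.01 (limma adjusted p = 0.936), and the third Hmgn5 siRNA array gave the lowest of its 3 values at 7.68. Clasp2 had 9.69, 9.65 and 9.48 in Hmgn5 siRNA cells, against 9.84, 9.83 and 9.73 in control cells at 24 h, a difference of -0.19 (adjusted p = 0.945). Klc1 had -0.14 (adjusted p = 0.932), with values that varied by less within each 24 h group than between them. The arrays of both groups did not overlap for 4 genes that were higher with Hmgn5 siRNA and 7 that were lower, where 6.65% and 5.62% of all genes showed this. By role, the median difference was 0.03 for alpha and beta tubulins, -0.08 for structural proteins, -0.03 for end-binding proteins, -0.01 for kinesins and -0.02 for dynein genes.

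The genes that rose over time in control cells lay near the 24 h control level in Hmgn5 siRNA cells, except that Kif1a had the lowest difference of the list. For Map2 the knockdown difference was -0.12 with an interval of -0.29 to 0.04, for Tubb2b -0.08 with -0.39 to 0.22, and for Kif3c 0.00 with -0.23 to 0.23. Comparisons with siRNA and with time use the same control arrays at 24 h, so a deviation of these arrays enters both with opposite sign.

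Set against control cells at 4 h, Hmgn5 siRNA cells at 24 h differ in siRNA and in time together. Map2 alone was called, with 0.50 or 1.41-fold higher (SE 0.07, limma adjusted p = 0.0111). That is 1 of 36 genes, where 1.52% of all genes were called higher and 1.04% lower. The arrays did not overlap for 10 genes, all higher in Hmgn5 siRNA cells, where 10.3% of all genes were higher and 8.59% lower without overlap. Tubb2a had 0.59 (adjusted p = 0.0728), Tubb2b 0.56 (0.0692), Kif3c 0.43 (0.0652) and Kif1a 0.27 (0.315). The median over the list was 0.08, against 0.01 over all genes. Without the second 4 h array Tubb2a (0.39, adjusted p = 0.0272), Tubb2b (0.37, 0.0277) and Kif3c (0.30, 0.0448) passed as well, and the median was 0.04.

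Of 166 further genes of the microtubule system, 153 were measured. Over time, 4 of them rose and 4 fell in control cells, 2.61% each way, near the 2.17% each way of all genes. Those that rose were Ttll7, a polyglutamylase of beta tubulin, and the cargo adaptors Trak1, Bicd2 and Hap1. Those that fell were Kif21b, the sister of Kif21a, Map6d1, a relative of Map6, Haus6, a subunit of the augmin complex that branches microtubules, and Hook3, an activating adaptor of dynein. The rule for naming further genes takes 3 of each list, and Hap1 was added after its values were seen to complete the count.

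Ttll7 had 8.41, 8.29 and 8.26 in Hmgn5 siRNA cells at 24 h, 8.49, 8.48 and 8.57 in control cells at 24 h, and 7.65, 7.93 and 7.89 in control cells at 4 h, a rise over time of 0.69 (limma adjusted p = 0.00318). Trak1, which links mitochondria to kinesin-1 and dynein, had 9.88, 9.90 and 9.83 in Hmgn5 siRNA cells at 24 h, 10.00, 9.98 and 9.99 in control cells at 24 h, and 9.58, 9.49 and 9.44 in control cells at 4 h, a rise of 0.49 (adjusted p = 0.00321). In both genes the 3 groups did not overlap, with the Hmgn5 siRNA arrays between the control groups. Both were named for a high level in control cells at 24 h, and the knockdown comparison uses those same arrays. The choice itself therefore favours Hmgn5 siRNA values below control, so this order is a description only. Bicd2 (0.46, adjusted p = 0.0179) and Hap1 (0.42, adjusted p = 0.0297) completed the rises, with 0.38 and 0.32 without the second 4 h array.

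Kif21b had 7.42, 7.45 and 7.44 in Hmgn5 siRNA cells at 24 h, 6.94, 7.18 and 7.21 in control cells at 24 h, and 7.88, 7.90 and 7.85 in control cells at 4 h. Its difference over time of -0.76 in control cells was the largest change of the 153 genes (limma adjusted p = 0.00129). Haus6 had 7.39, 7.29 and 7.32 in Hmgn5 siRNA cells at 24 h, 7.11, 6.83 and 6.96 in control cells at 24 h, and 7.51, 7.50 and 7.34 in control cells at 4 h, with a time difference of -0.48 (adjusted p = 0.0143). Map6d1 had -0.52 (adjusted p = 0.00837) and Hook3 -0.26 (adjusted p = 0.0241). Kif21b and Haus6 had the largest knockdown differences among those called over time, 0.32 (adjusted p = 0.481) and 0.37 (adjusted p = 0.461), and neither was called. Both were named for a low level in control cells at 24 h, which in the same way favours positive knockdown differences. All 8 calls over time held without the second 4 h array, a setting added after the data were seen, and 1 further gene, Map1lc3a, was then called lower (-0.42, adjusted p = 0.0371).

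No gene of the 153 was called between Hmgn5 siRNA and control siRNA at 24 h, and 6 had an unadjusted limma p under 0.05 (3.92%, against 5.25% of all genes). Mitotic kinesins lay above 0 in 11 of 12 cases with a median of 0.15, and none had an unadjusted limma p under 0.05. Nucleation and polymerisation factors lay above 0 in 17 of 21 cases, where 49.2% of all genes did. These were the lists with the largest shares above 0. Mostly below 0 lay further transport kinesins (7 of 19 above) and further microtubule-associated and end-binding proteins (12 of 29 above). Over time in control cells, mitotic kinesins and nucleation factors each had 33.3% above 0. A deviation of the shared control arrays at 24 h enters both comparisons with opposite sign. Kif23, which bundles microtubules at the midbody of dividing cells, had 7.27, 7.22 and 7.93 in Hmgn5 siRNA cells and 6.95, 6.68 and 7.48 in control cells at 24 h, with the third replicate highest in each group and overlapping values. Against control cells at 4 h, Hmgn5 siRNA cells at 24 h were called higher for Ttll7, Trak1 and Cdk5rap2, a centrosome protein (0.48, adjusted p = 0.0249), and lower for Kif21b and Map6d1. That is 3 of 153 genes higher and 2 lower, near the shares of all genes, 1.52% higher and 1.04% lower. These 5 calls held without the second 4 h array, where Cdk5rap2 had 0.40 (limma adjusted p = 0.0281).

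**Figure D4:**
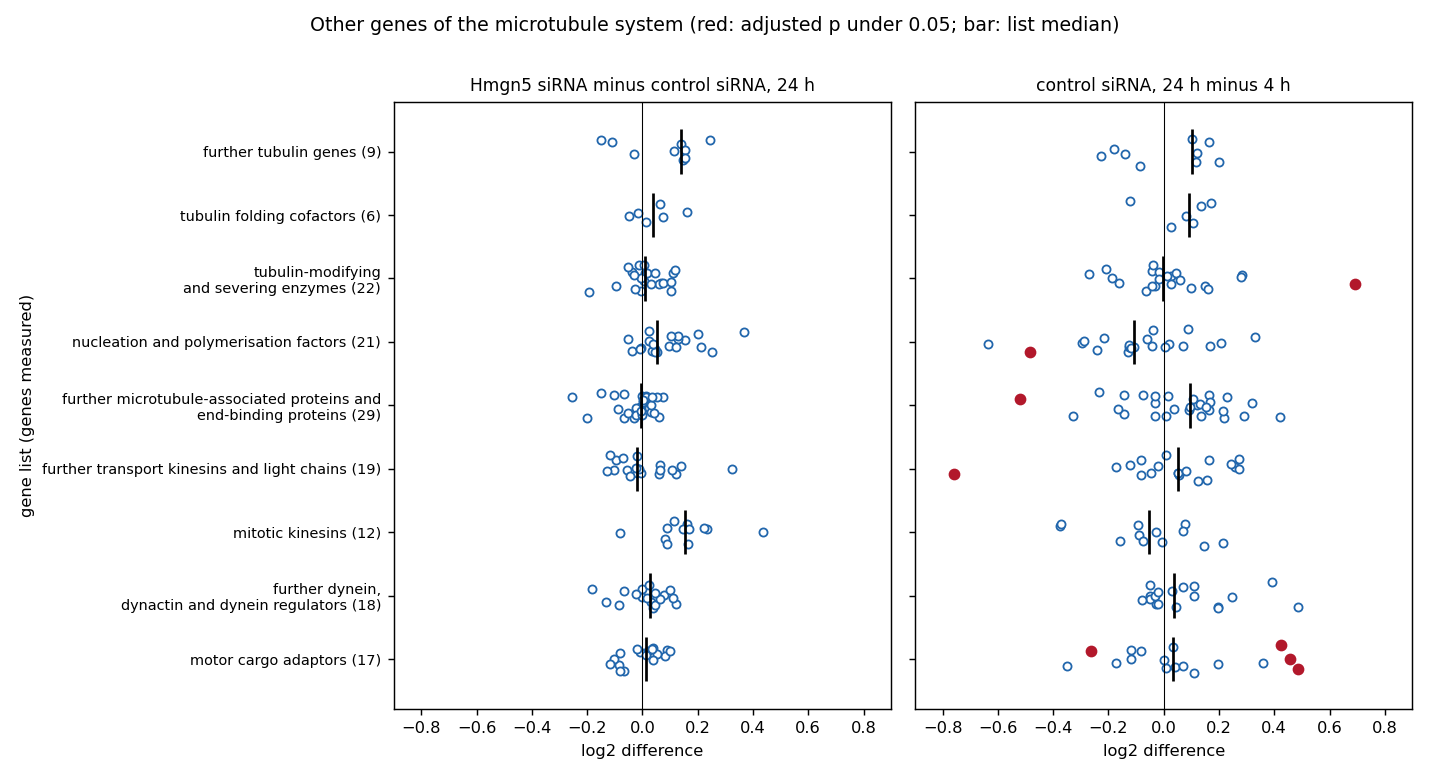
Log2 difference of each of the 153 further genes of the microtubule system, in rows by list with the number measured, for Hmgn5 siRNA minus control siRNA at 24 h (left) and control siRNA at 24 h minus 4 h (right), with a bar at each list's median and red points for an adjusted p under 0.05. The 8 red points are all on the right-hand panel, 4 above and 4 below 0. On the left-hand panel the mitotic kinesins lie above 0 except for 1, where 49.2% of all genes lay above 0. On the right-hand panel, which uses the same control arrays at 24 h, 33.3% of the mitotic kinesins lie above 0.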

How the data were processed

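Total RNA was measured on 9 whole-transcript arrays, 1 per sample. The deposited unit is log2 expression, 1 value per probe set, made by the authors with RMA from the oligo package, per the submitters' processing notes, with versions not given in the sources used here. RMA includes quantile normalization, which hides a change shared by most genes. Of 41345 probe sets, 23521 carried 1 gene symbol in the platform annotation, 1814 several and 16010 none, and the probe set with the highest mean stood for each of the 1082 genes with several. RefSeq (GRCm38.p6) gave names for 23328 probe sets, with no symbol changed, and the promoters, and no array coordinates are given. Groups came from the sample titles.

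Using limma 3.58.1 in R 4.3.3, group means of all 9 arrays were fitted in 1 model, with 6 residual and 3.55 prior degrees of freedom, and steps were tested on simulated data. Array values are printed for called genes and for up to 8 further genes with the smallest p over time or knockdown, and of each list of further pathway genes up to 3 are named. Genes and lists were chosen with earlier results of these data known. The number of arrays limits the precision: the 95% interval of a gene reached 0.19 either way in the median. The exact two-sided permutation test of Hmgn5 gave p = 0.1, the smallest that 3 arrays against 3 allow. Alternatives were a replicate block, only the 2 groups compared, a trend and robust prior, array weights, leaving out the dimmest 33% of genes, cyclic loess, median centring, averaging all probe sets of a gene, and leaving out each array.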

Additional observations from a re-analysis of the deposited data

How the results depend on the processing

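Among the 8 alternatives of other kinds and the 9 that leave out 1 array, no knockdown count left 0 and the tracked differences kept their sign: that of Hmgn5 with knockdown and those over time of the 4 called and 8 further genes with the smallest p. The number of genes called over time was 4 as reported, 2 with only the 2 groups compared, 8 with array weights (7 higher and 1 lower), while 963, 280 and 1685 of all genes were called in these fits, and between 1 and 6 when 1 array was left out. It was 1 without the second Hmgn5 siRNA array or any control array at 24 h, where 646, 355, 310 and 407 of all genes were called. It was 2 without Hmgn5 siRNA replicate 1 or 3 or control 4 h replicate 3, where 624, 801 and 588 of all genes were called. It was 6 without control 4 h replicate 1, where 731 of all genes were called. The fit with the replicate block gave 3, without Kif3c (limma adjusted p = 0.0629), where 893 of all genes were called. The main fit did not pair samples by replicate number. Correlations of same-numbered deviations were 0.0382 to 0.0624 over time and 0.0891 to 0.285 for knockdown. All of these were low but positive. An effect shared by same-numbered arrays was modelled only in the fit with the replicate block, and its size was not tested. The Map2 rise over time passed in all 17 alternatives (adjusted p 0.00102 to 0.0216). Kif1a lost its call in 6 (adjusted p up to 0.112), Tubb2b in 8 (up to 0.124), among them the mean of its probe sets (0.0939), and Kif3c in 10 (up to 0.155). Klc1 gained one in 5, Mapre2 and Mapre3 in 2 each, and Tubb6 was called with array weights and without control 4 h replicate 2. The median difference over time was 0.15 with median centring and 0.08 to 0.13 without 1 array. For Hmgn5 siRNA at 24 h against control siRNA at 4 h, the count of 1 became 0 with only the 2 groups compared (Map2 adjusted p = 0.0543), 4 with array weights, 3 without the dimmest genes, 2 with cyclic loess (569 of all genes called as reported, then 113, 1226, 781 and 644) and 1 to 4 without 1 array (2 without the first 4 h array, 4 without the second), and the median was 0.13 with median centring and 0.04 to 0.11 without 1 array. For the same comparison, 165 to 784 of all genes were called in the fits without 1 array. The cause of these changes was not tested. The Hmgn5 difference was -1.24 to -1.18 without 1 array, and missed the threshold in 3 of those fits (adjusted p 0.0506 to 0.0558). Hmgn5 was not among the genes left after the dimmest were removed.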
